A study of Mus musculus with 2 samples.

Results

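The 10 genes described here are secreted inhibitors of WNT signalling (Sfrp1, Sfrp2, Sfrp5, Frzb, Dkk2, Dkk3, Wif1 and Notum), the WNT receptor gene Fzd4 and the WNT target Axin2. They were taken by symbol from the 31053 genes of the feature lists, and each symbol matched 1 row. Transcripts were counted in single cells of mouse eye cups at postnatal day 0, in 2 libraries. The control library came from Myrf fl/fl mice and the mutant library from Rx>cre Myrf fl/fl mice, and each pooled 3 eye cups. Both genotypes carry loxP-flanked Myrf alleles, and only the mutant carries the Rx>cre transgene, which is active in the early eye field that forms both the neural retina and the retinal pigment epithelium (RPE). Cornea, lens and optic nerve were dissected away before dissociation with papain. With 1 library per genotype no difference has a replicate check, so no p-value is given, intervals cover counting error only, and animals within a pool cannot be told apart.

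WNT ligands are lipid-modified proteins that bind Frizzled receptors together with LRP5 or LRP6, which stabilises β-catenin and turns on target genes. SFRP proteins and FRZB bind WNT ligands outside the cell, WIF1 does so as well, DKK2 acts on the LRP co-receptors, and NOTUM removes the lipid from the ligand. DKK3 is a divergent DKK family member whose action on WNT signalling is less settled. AXIN2 is part of the complex that degrades β-catenin and is itself a feedback target. FZD4 is also the receptor for norrin in retinal vessels. In the eye, WNT signalling is known for its part in RPE specification and in patterning of the ciliary margin.

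Counts are of unique molecular identifiers (UMIs), each marking 1 captured transcript. The matrices held 14305 control and 12222 mutant barcodes with 79017429 and 76272867 UMIs, and 12534 and 10870 cells were kept. Of the kept barcodes, 47 had the same barcode sequence in both libraries. Clustering gave 37 clusters, of which 6 stayed unnamed and the rest were given to 15 classes by marker genes. None of the 10 genes took part in the clustering. A level is the summed UMIs of a class scaled to counts per 1e6 UMIs of that class (CPM), with an exact 95% Poisson interval. A log2 ratio sets the mutant level over the control level after adding 1 CPM to both, with the exact 95% interval of the plain ratio. Because the interval leaves out the added CPM, a ratio of a low gene can lie at its edge.

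The RPE-like class held 521 control and 213 mutant cells and 10 of its 12 markers counted, among them Pmel, Dct, Tyr and Trpm1, while Rpe65, the visual cycle isomerase gene, was at 0 in the mutant and near 0 in the control. Myrf, which was deleted in the mutant, was at 225 CPM (743 UMIs) in control RPE-like cells and at 26.2 CPM (64 UMIs) in mutant ones, a log2 ratio of -3.06 (-3.50 to -2.73). The cells of this class differed in depth between the libraries, with medians of 2449 and 9963 UMIs. Values are therefore also given by depth. Mesenchymal transcripts differed between the libraries in the same class: the 10 mesenchyme markers summed to 2760.0 CPM in control RPE-like cells and to 327 CPM in mutant ones, with 1 of 10 higher in the mutant. Lens transcripts differed too, although the lens was dissected away: 222 control cells and 1 mutant cell were lens-like. The 9 lens markers summed to 286 and 38.5 CPM in RPE-like cells and to 203 and 0.745 CPM in retinal progenitor-like cells. Of other lists in RPE-like cells, amacrine markers (197 and 68.4 CPM) were lower in the mutant and pericyte markers (267 and 374 CPM) higher. The part of such transcripts in the results was not tested beyond the values given by depth. Red blood-like cells, which should lack most of the 10 genes, held some UMIs of them: 3.21 and 2.19 CPM for Sfrp1, 7.5 and 11 CPM for Sfrp2, and 31.1 and 69 CPM for Dkk3 in control and mutant. White blood-like cells held 17.5 and 0, 19.8 and 10.4, and 46.7 and 52.1 CPM of the same genes, so such cells do not give a single background level.

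Sfrp2 and Fzd4 differed in opposite directions in RPE-like cells, and the bases just upstream of both genes are shown for that reason. They come from RefSeq promoters on GRCm38.p6, plus strand, 5′ to 3′, and stop 1 base before the gene start. The table of promoters matched 7 of the 10 genes. Capitals mark GGATTA, a word bound by OTX proteins, which are transcription factors of the RPE. Sfrp2 lies at chr3:83766321-83774316 and its stretch is chr3:83766071-83766320, with 63.6% G or C. Fzd4 lies at chr7:89404355-89413134 and its stretch is chr7:89404116-89404354, with 72.8% G or C.
Sfrp2: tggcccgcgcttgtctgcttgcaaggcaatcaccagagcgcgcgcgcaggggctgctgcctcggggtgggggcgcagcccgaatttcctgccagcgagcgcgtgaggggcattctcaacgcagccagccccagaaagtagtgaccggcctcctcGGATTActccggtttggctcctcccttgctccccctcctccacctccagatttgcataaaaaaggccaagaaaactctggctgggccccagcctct
Fzd4: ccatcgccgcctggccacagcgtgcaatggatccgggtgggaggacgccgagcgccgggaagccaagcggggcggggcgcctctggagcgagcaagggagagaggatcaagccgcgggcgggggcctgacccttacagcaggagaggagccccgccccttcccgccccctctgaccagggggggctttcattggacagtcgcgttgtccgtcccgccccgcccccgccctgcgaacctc

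GGATTA began 96 bases before the start of Sfrp2 and was in none of the other 6 promoter windows. Searched on both strands, it was in 6.25% of 32851 RefSeq windows. All windows searched, those of the 7 genes included, were the 250 bases upstream of the RefSeq start, of which 239 are printed for Fzd4. The MYRF words CTGGCAC and CTGGTAC were in none of the 7 windows and in 5.93% of all. The words CTTTGAA and CTTTGAT or CTTTGTA and CTTTGTT, bound by the TCF proteins through which β-catenin acts, were in none of the 7 windows and in 14.8% of all.

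Across the eye cup the 10 genes fell into different cell classes. The order given here is of whole classes, and single clusters can stand above it. Sfrp1 had its highest level in RPE-like cells of both libraries (831 and 1038 CPM in control and mutant), with intervals apart from the next class, surface epithelium-like cells in the control (175 CPM) and Schwann or glia-like cells in the mutant (202 CPM, 27 UMIs). Sfrp2 was also highest in RPE-like cells (362 and 673 CPM), followed by mesenchyme or pericyte-like cells (277 and 352 CPM) and retinal progenitor-like cells (104 and 128 CPM), with no overlap of intervals between these neighbours. In the control, the mesenchyme or pericyte-like cluster led by Lypd1 and Myh11 was above RPE-like cells, at 590.3 CPM of Sfrp2. Dkk2 was highest in mesenchyme or pericyte-like cells (339 and 388 CPM). Dkk3 was highest in retinal progenitor-like cells (529 and 631 CPM), followed by amacrine-like cells in the control (317 CPM) and astrocyte-like cells in the mutant (476 CPM). The control intervals of amacrine-like and neurogenic-like cells (289.9 CPM) overlapped. The amacrine-like cluster led by Krt73 and Ptf1a was above the progenitor-like class, at 697 and 769.7 CPM of Dkk3. Fzd4 was highest in endothelial-like cells (124 and 161 CPM). In the control its next classes were RPE-like (96.7 CPM) and muscle-like cells (87.2 CPM), whose intervals overlapped.

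The remaining genes were sparse. Axin2 was highest in melanocyte-like cells (46.2 and 48.5 CPM, from 26 and 16 UMIs), followed in the control by RPE-like cells (19.7 CPM), with intervals apart. The mesenchyme or pericyte-like cluster led by Aldh3a1 and Kera was at 46.6 and 31.1 CPM of Axin2. Wif1 was at 21.6 and 17.7 CPM in astrocyte-like cells, from only 9 and 11 UMIs, at 5.15 and 17.6 CPM in RPE-like cells, and at 10.3 and 11.1 CPM in mesenchyme or pericyte-like cells, from 178 and 127 UMIs. In the control, Notum was at 16.4 CPM in RPE-like and 15.2 CPM in amacrine-like cells, whose intervals overlapped. Its 54 control RPE-like UMIs lay in only 15 of 521 cells, described below. In the mutant Notum was highest in amacrine-like cells (21.4 CPM). Sfrp5 had 33 UMIs among all kept cells, of which 12 control and 5 mutant UMIs lay in the 21 and 20 Schwann or glia-like cells (106 and 37.4 CPM). Frzb had 68 UMIs in all and stayed under 10 CPM in every class and library.

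**Figure D1:**
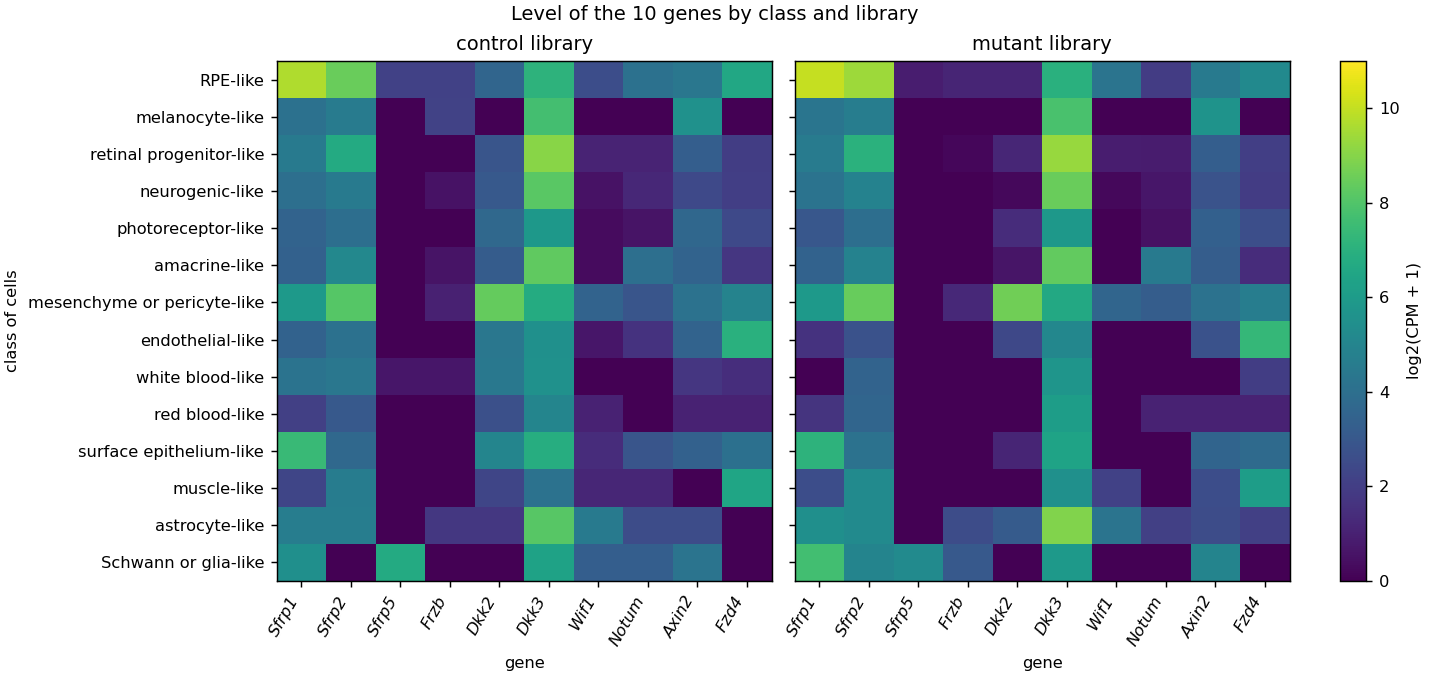
Level of the 10 genes as log2(CPM + 1), with 1 row per named class, 1 column per gene and 1 panel per library (lens-like cells, of which the mutant held 1, are left out). Over whole classes, Sfrp1 and Sfrp2 peak in RPE-like cells, Dkk2 in mesenchyme or pericyte-like cells, Dkk3 in retinal progenitor-like cells and Fzd4 in endothelial-like cells.

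In RPE-like cells, 8 of the 10 genes had at least 20 UMIs in the libraries together. Of these 8, Dkk2, Notum and Fzd4 were lower in the mutant by at least 2-fold, and Wif1 was higher. Over all 11169 genes measured in this class, 5.08% were that much lower and 2.57% that much higher. The median log2 ratio was 0.02 over the 8 genes and -0.01 over all measured genes. A gene with few UMIs passes the minimum mainly through the library where it is high, so this count is a description.

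**Figure D2:**
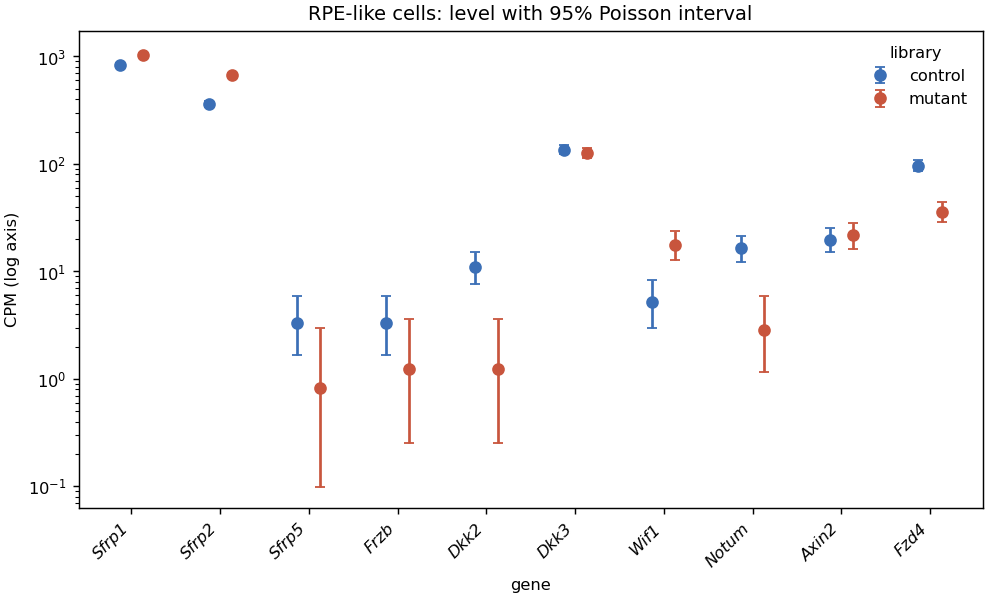
Level of each gene in RPE-like cells on a log axis, 1 point per library with its exact 95% Poisson interval. Intervals of the libraries are apart for Sfrp1, Sfrp2, Dkk2, Wif1, Notum and Fzd4, and they overlap for Sfrp5, Frzb, Dkk3 and Axin2.

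Sfrp1 and Sfrp2, which encode secreted WNT-binding proteins, were both somewhat higher in the mutant. Control RPE-like cells held 2743 UMIs of Sfrp1 (831 CPM, interval 800.5 to 863), and mutant ones 2535 (1038 CPM, interval 998 to 1079). This is a log2 ratio of 0.32 (0.24 to 0.40), short of 2-fold. Sfrp2 had 1195 control UMIs (362 CPM, interval 342 to 383) against 1645 mutant UMIs (673 CPM, interval 641 to 707). Its log2 ratio of 0.89 (0.79 to 1.00) was just short of 2-fold. With at most 2000 UMIs per cell, the limit the study used, the Sfrp2 ratio turned to -0.16, from 64 and 11 UMIs.

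Both genes were spread over many cells. Sfrp1 was found in 337 of 521 control and 170 of 213 mutant cells, and Sfrp2 in 254 and 143. When each cell was thinned to 1000 UMIs, which left 415 control and 184 mutant cells, 43.9% and 50% of cells held Sfrp1, with overlapping exact intervals. For Sfrp2 the thinned shares were 23.1% (19.2 to 27.5%) and 31.5% (24.9 to 38.8%), and again the intervals overlapped. Not thinned, the Sfrp2 shares were 48.8% and 67.1%. In red blood-like cells, with median depths of 3579 and 11077 UMIs, 1.77% and 0% of thinned cells held Sfrp2, from 113 and 85 cells.

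Levels were also read at matched depth. Among the 152 control and 117 mutant cells with over 8000 UMIs, whose median depths were 16037 and 17074 UMIs, Sfrp2 was at 400.4 and 708 CPM, a log2 ratio of 0.82 (0.71 to 0.94). Over 4000 to 8000 UMIs it was at 256 and 471 CPM (0.88, interval 0.39 to 1.37). Up to 4000 UMIs it was at 233 and 273 CPM, and the interval included no difference (0.23, interval -0.40 to 0.82). Sfrp1 was at 924 and 1085 CPM in cells over 8000 UMIs (0.23, interval 0.15 to 0.31). Up to 4000 UMIs it was at 471 and 610.1 CPM, and over 4000 to 8000 UMIs at 658 and 687 CPM, and both intervals of the ratio included no difference (-0.04 to 0.77 and -0.30 to 0.41).

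**Figure D3:**
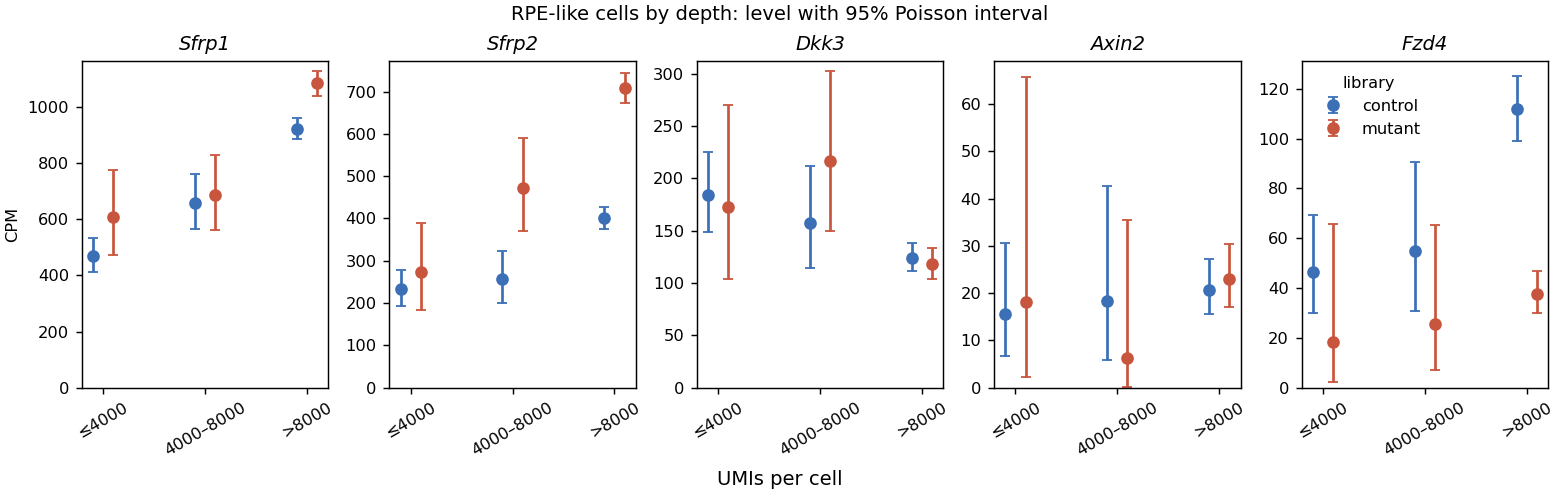
Level of 5 genes in RPE-like cells split by UMIs per cell (up to 4000, over 4000 to 8000, over 8000), 1 point per library with its exact 95% Poisson interval. In the deepest cells Sfrp2 was higher in the mutant (708 against 400.4 CPM) and Fzd4 lower (37.7 against 112 CPM), while the intervals of Dkk3 and Axin2 overlapped.

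A finer clustering split the RPE-like cells into a shallower group led by Pcp4, Slc38a8 and Folr1 (371 control and 112 mutant cells) and a deeper group led by Klk4, Slc16a8 and Ttr (150 and 101 cells). Sfrp2 was higher in the mutant in both, at 171 and 251 CPM in the shallower group and 457 and 823 CPM in the deeper group. The log2 ratios were 0.55 (0.24 to 0.86) and 0.85 (0.73 to 0.97). Sfrp1 was at 513 and 677 CPM in the shallower and at 989 and 1166 CPM in the deeper group.

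Outside the RPE, the SFRP genes differed by class and cluster. In mesenchyme or pericyte-like cells Sfrp1 was at 59 and 59.4 CPM, and Sfrp2 at 277 and 352 CPM with a log2 ratio of 0.34 (0.28 to 0.41). Among the clusters of that class the difference in Sfrp2 was uneven. In the cluster led by Acan and Tspan8 (221 control and 172 mutant cells), Sfrp2 was at 256 and 519 CPM, a log2 ratio of 1.01 (0.89 to 1.15). In the cluster led by Aldh3a1, Fgf21 and Kera it was at 322 and 349 CPM, and in the cluster led by Lypd1 and Myh11 at 590.3 and 555 CPM. In retinal progenitor-like cells Sfrp2 was at 104 and 128 CPM, a log2 ratio of 0.30 (0.21 to 0.40).

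Endothelial-like cells went the other way, at low levels. Sfrp1 had 34 control and 4 mutant UMIs (10.1 and 2.1 CPM), and Sfrp2 had 55 (16.3 CPM) and 11 (5.78 CPM). In the control, 1 cell held 8 of the Sfrp1 UMIs and 1 cell held 22 of the Sfrp2 UMIs. In the mutant the most in a cell was 1 for Sfrp1 and 5 for Sfrp2. Red blood-like cells had 3.21 and 2.19 CPM of Sfrp1 and 7.5 and 11 CPM of Sfrp2, while white blood-like cells had 17.5 and 0 CPM of Sfrp1 and 19.8 and 10.4 CPM of Sfrp2. In endothelial-like cells, mesenchyme markers summed to 1339 and 179 CPM and RPE markers to 204 and 27.8 CPM. The part of either in the difference was not tested.

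Fzd4, the Frizzled receptor of the set, was lower in mutant RPE-like cells. The control held 319 UMIs (96.7 CPM, interval 86.4 to 108) and the mutant 88 (36 CPM, interval 28.9 to 44.4). The control level was 2.68 times that of the mutant, a log2 ratio of -1.40 (-1.78 to -1.08). The gene was found in 148 control and 61 mutant cells, with at most 10 and 4 UMIs in a cell. After thinning, 6.02% (3.94 to 8.76%) of control and 1.09% (0.132 to 3.87%) of mutant cells held it, and the intervals did not overlap. Without thinning the shares were alike (28.4% and 28.6%), the mutant cells being deeper. In thinned red blood-like cells no Fzd4 was found in 113 control or 85 mutant cells, which at 3 counts allows shares of up to 2.65% and 3.53%.

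Fzd4 was lower in the mutant in both RPE-like groups and in the deepest cells, while in the shallower bands the intervals included no difference. Over 4000 to 8000 UMIs it was at 54.9 and 25.5 CPM, from 15 and 4 UMIs (-1.08, interval -3.16 to 0.54). It was at 112 and 37.7 CPM in cells over 8000 UMIs (log2 ratio -1.54, interval -1.94 to -1.21) and at 46.5 and 18.2 CPM up to 4000 UMIs, from 24 and 2 UMIs (interval -4.48 to 0.66). In the deeper group it was at 114 and 38.2 CPM and in the shallower group at 62.2 and 29.8 CPM. With only cells of at most 5% mitochondrial UMIs the log2 ratio was -0.75, from 72 and 33 UMIs, which is short of 2-fold.

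In endothelial-like cells Fzd4 was higher in the mutant, with 417 control UMIs (124 CPM, interval 112 to 136) and 307 mutant UMIs (161 CPM, interval 144 to 180.3). Their log2 ratio was 0.38 (0.16 to 0.60). The median depth of these cells was 4411 UMIs in the control against 8997 in the mutant, and red blood markers in them summed to 3901 and 901 CPM. In endothelial-like cells over 8000 UMIs the Fzd4 ratio was 0.33, from 350 and 262 UMIs. After thinning, 8.88% and 16.1% of cells held Fzd4. In mesenchyme or pericyte-like cells it was at 29.1 and 24.1 CPM (-0.26, interval -0.49 to -0.06), and in muscle-like cells at 87.2 and 68.3 CPM. It was near 0 in retinal progenitor-like cells (3.02 and 3.14 CPM).

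Notum, which encodes the WNT deacylase, was lower in mutant RPE-like cells, but its UMIs came from few cells. The control had 54 UMIs (16.4 CPM, interval 12.3 to 21.4) against 7 in the mutant (2.87 CPM, interval 1.15 to 5.90), a log2 ratio of -2.17 (-3.90 to -1.37). The control UMIs lay in 15 of 521 cells and the 7 mutant UMIs in 1 cell. With at most 5% mitochondrial UMIs the libraries were alike (log2 ratio 0.00, from 9 and 7 UMIs). By depth, Notum had 47 control and 0 mutant UMIs in cells over 8000 UMIs, and 6 and 7 in cells over 4000 to 8000 UMIs (0.99, interval -0.78 to 2.87).

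The Notum cells stood apart from other RPE-like cells. Of the 15 control cells, 14 held Zic1, 14 held Wfdc1 and 9 held Msx1, markers of the ciliary margin. Of the other ciliary margin markers, Gja1 was in 14, Otx1 in 12 and Zic2 in 10, and Cdo1 was not counted by cell. Only 6 held Pmel and 3 held Dct. The median depth was 11001 UMIs in these cells and 2390 in the 506 control RPE-like cells without Notum. Their summed levels were 443 and 4.15 CPM for Zic1, 1026 and 4.78 CPM for Wfdc1 and 2239.6 and 14195 CPM for Pmel. Of the 506 cells, 11 held Zic1, 14 held Wfdc1 and 0 held Msx1, while 289 held Gja1 and 493 held Pmel. Over all RPE-like cells the 7 listed ciliary margin markers summed to 629 CPM in the control against 811 CPM in the mutant, and 2 of 7 were higher in the mutant. Gja1 made up most of both sums, at 485 CPM in control and 773 CPM in mutant cells without Notum. In RPE-like cells over 8000 UMIs, Msx1 (11.6 and 0.46 CPM) and Zic1 (28.7 and 2.76 CPM) were lower in the mutant. So were Zic2 (8.76 and 2.3 CPM) and Wfdc1 (61.7 and 6.43 CPM), while Otx1 (17.1 and 16.5 CPM) and Cdo1 (3.19 and 2.76 CPM) differed little. The single mutant Notum cell held Zic1, Wfdc1 and Msx1 and neither Pmel nor Dct.

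Cells holding at least 2 of Msx1, Zic1 and Wfdc1 numbered 14 of 521 control and 2 of 213 mutant RPE-like cells, and no Myrf was found in them. They carried 53 of the 54 control UMIs and all 7 mutant UMIs of Notum. Without these cells, Notum was left with 1 control and 0 mutant UMIs, and Fzd4 had 318 and 86 UMIs, with a log2 ratio of -1.48. This grouping was chosen after the values were seen.

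Outside the RPE, Notum was found among amacrine-like and mesenchyme or pericyte-like cells. Among amacrine-like cells, the cluster led by Krt73, P2rx1, Kirrel2 and Ptf1a held 46 control UMIs (40.5 CPM) and 113 mutant UMIs (75.1 CPM), a log2 ratio of 0.88 (0.39 to 1.42). Cells with a Notum UMI made up 13.5% there in the control (36 of 267) and 21.1% in the mutant (67 of 317), at median depths of 4221 and 4568 UMIs. The cluster led by Klhl35 and Nhlh2 went the other way, with 13 and 3 UMIs (10 and 1.88 CPM, -1.94, interval -4.87 to -0.55). Over the whole amacrine-like class, which joins these opposite directions, it was at 15.2 and 21.4 CPM (0.47, interval 0.03 to 0.97). The mesenchyme or pericyte-like cluster led by Lypd1, Hsd11b1, Cnn1 and Myh11 held 84 and 66 UMIs (53.5 and 56.4 CPM), with no difference beyond counting error.

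Wif1, a secreted WNT-binding protein, was higher in mutant RPE-like cells, again in few cells. The 17 control UMIs (5.15 CPM, interval 3.0 to 8.25) lay in 14 cells and the 43 mutant UMIs (17.6 CPM, interval 12.7 to 23.7) in 10 cells, a log2 ratio of 1.60 (0.93 to 2.68). In the mutant, 88.4% of the UMIs lay in 5 cells, and 1 cell held 17. Without integration of the libraries before clustering the ratio was 0.79, short of 2-fold. In cells over 4000 to 8000 UMIs there were 5 control and 0 mutant UMIs, against 3 and 34 in cells over 8000 UMIs. Up to 4000 UMIs there were 9 and 9, at 17.4 and 82 CPM (2.17, interval 0.73 to 3.74). After thinning, 1.45% of control and 1.63% of mutant cells held a UMI, from 6 and 3 cells.

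The Wif1 cells of the libraries shared pigment genes and differed in others. All 10 mutant cells held Pmel, Dct and Gja1, none held Ttr, Rgr, Msx1, Zic1 or Wfdc1, and 4 held Myh11, a smooth muscle myosin gene. Of the 14 control cells, 11 held Pmel, 10 held Dct, 11 held Gja1, 2 held Myh11, 5 held Zic1 and 4 held Notum. Col1a1 was in 13 of them, with a summed level of 23637 CPM against 718 CPM in the other control RPE-like cells. How its UMIs were spread over these cells is not given here. Nearly all Wif1 UMIs (15 in the control, 42 in the mutant) lay in the shallower group, where the level was 13.7 and 65.8 CPM. In mesenchyme or pericyte-like cells Wif1 did not differ beyond counting error (10.3 and 11.1 CPM).

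Dkk2, which inhibits through the LRP co-receptors, was lower in the mutant in each compared class but mesenchyme or pericyte-like cells, where its level was highest. RPE-like cells held 36 control UMIs (10.9 CPM) and 3 mutant UMIs (1.23 CPM), a log2 ratio of -2.42 (-5.49 to -1.49). Among RPE-like cells over 8000 UMIs Dkk2 had 9 and 3 UMIs, and the interval included no difference (-0.95, interval -3.90 to 0.62), while up to 4000 UMIs it had 26 and 0. Retinal progenitor-like cells held 97 and 24 UMIs (6.36 and 1.28 CPM), and in photoreceptor-like cells 50 and 8 (12.3 and 1.61 CPM). In mesenchyme or pericyte-like cells it had 5836 and 4431 UMIs (339 and 388 CPM), a log2 ratio of 0.19 (0.14 to 0.25). The clusters of this class went in different directions and held different shares of it in each library. Dkk2 was lower in the mutant in the clusters led by Col10a1 and Alkal2 (-0.42, interval -0.61 to -0.24) and by Aldh3a1 and Kera (-0.14, interval -0.24 to -0.05). It was higher in those led by Acan (0.20, interval 0.07 to 0.33) and by Lypd1 and Myh11 (0.41, interval 0.27 to 0.54). The cluster led by Clec3b and Tnxb, with 181 and 164 CPM of Dkk2, held 499 control and 222 mutant cells, and the Aldh3a1 and Kera cluster held 154 and 155. Dkk2 was at 582 and 773 CPM in the cluster led by Lypd1 and Myh11. In that led by Aldh3a1, Fgf21, A2m and Kera it was at 830 and 752 CPM, and there 99.4% of cells in either library held it.

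Col1a1, a collagen gene of mesenchyme, moved with Dkk2. It was at 511 and 97.1 CPM in retinal progenitor-like cells, at 818 and 124 CPM in photoreceptor-like cells, at 403 and 35.1 CPM in red blood-like cells and at 1294 and 46.3 CPM in RPE-like cells. Of the 4271 control RPE-like Col1a1 UMIs, 1960 lay in the 14 cells with Wif1, and the other 507 cells were at 718 CPM. Per 1000 Col1a1 UMIs there were 14 Dkk2 UMIs in mesenchyme or pericyte-like cells of both libraries. For retinal progenitor-like cells there were 12.5 (10.1 to 15.2) in the control and 13.2 (8.43 to 19.6) in the mutant, and in photoreceptor-like cells 15 (11.2 to 19.8) and 12.9 (5.59 to 25.5). The ratio of Dkk2 to Col1a1 in these retinal classes did not differ from that in mesenchyme or pericyte-like cells beyond counting error. In control RPE-like cells it was 8.43 (5.9 to 11.7), a value that includes the 14 cells with Wif1. In mutant RPE-like cells it was 26.5 (5.47 to 77.6, from 3 Dkk2 UMIs). Neurogenic-like cells had 13.3 (9.19 to 18.7) and 2.78 (0.0703 to 15.5), and amacrine-like cells 14.7 (10.1 to 20.8) and 6.24 (1.29 to 18.2). Control melanocyte-like cells had 0 Dkk2 UMIs beside 644 Col1a1 UMIs. Their interval of 0 to 5.73 lies below the ratio of mesenchyme or pericyte-like cells. Ratios above that of mesenchyme or pericyte-like cells were found in control endothelial-like (36.1, interval 27.9 to 46), white blood-like (37.2, interval 25.9 to 51.7) and surface epithelium-like cells (28.1, interval 19.9 to 38.6). They were also found in mutant endothelial-like (92, interval 39.7 to 181, from 8 Dkk2 UMIs) and astrocyte-like cells (interval 81.2 to 583, from 5). Some of these ratios rest on single cells, which the intervals do not cover. In the mutant, 1 cell held 6 of the 8 endothelial-like UMIs and 1 cell held 4 of the 5 astrocyte-like UMIs. In the control, 1 cell held 22 of the 38 surface epithelium-like UMIs. The most in a control cell was 10 for endothelial-like and 4 for white blood-like cells.

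**Figure D4:**
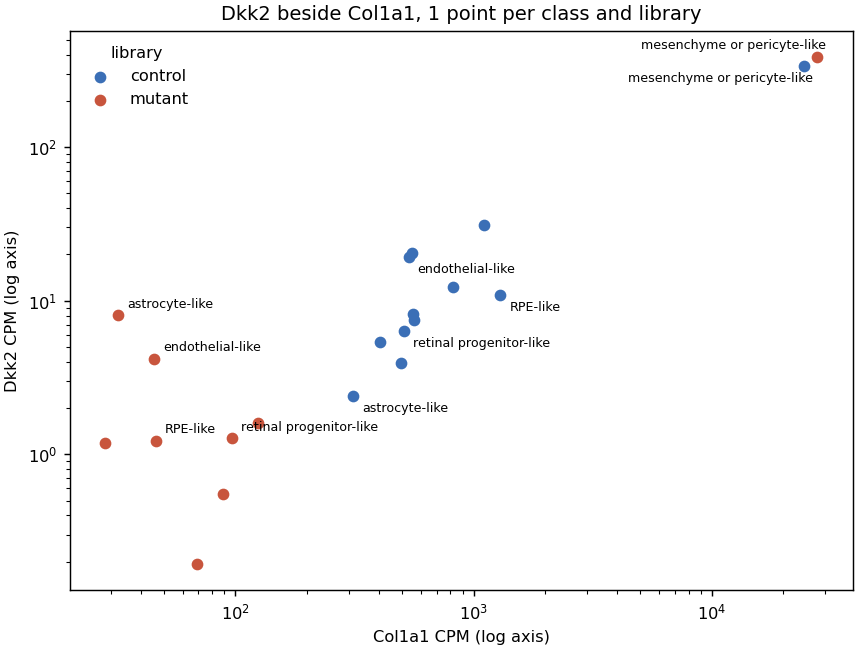
Dkk2 against Col1a1 level, both axes logarithmic, 1 point per named class and library with at least 1 Dkk2 UMI (some classes are labelled, and lens-like cells are left out). The control points all have Col1a1 at 312 CPM or more, and the mutant points other than mesenchyme or pericyte-like cells at 124 CPM or less.

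An unnamed cluster led by Gm26870, Dkk2, Col1a1 and Apod, with a median of 1821 UMIs, held 592 control and 22 mutant cells. Dkk2 was at 276 and 322 CPM in it. The part of free mesenchymal RNA in the Dkk2 difference was not tested beyond these values.

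Dkk3 differed by less than counting error between RPE-like cells of the libraries, at 449 UMIs (136 CPM, interval 124 to 149) and 310 UMIs (127 CPM, interval 113 to 142). The log2 ratio was -0.10 (-0.31 to 0.11), so a difference of 2-fold in this total lies outside the interval. Red blood-like cells were at 31.1 and 69 CPM of Dkk3, and the part of such background in the RPE-like levels was not tested. Among amacrine-like cells it was highest in the cluster led by Krt73 and Ptf1a (697 and 769.7 CPM, found in 83.5% and 88% of cells). In retinal progenitor-like cells it was at 529 and 631 CPM (0.26, interval 0.22 to 0.30) and in neurogenic-like cells at 289.9 and 354 CPM (0.29, interval 0.18 to 0.39). Both differences are far below 2-fold, and the median of all measured genes was at 0.05 and 0.04 in these classes.

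Sfrp5 and Frzb were too sparse in RPE-like cells to compare. Sfrp5 had 11 control and 2 mutant UMIs and Frzb 11 and 3, and the interval of each ratio included no difference (-5.24 to 0.17 and -3.92 to 0.48).

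Axin2, the feedback target, did not differ beyond counting error in any compared class. RPE-like cells of the control held 65 UMIs (19.7 CPM, interval 15.2 to 25.1) and those of the mutant 53 UMIs (21.7 CPM, interval 16.3 to 28.4), with a log2 ratio of 0.13 (-0.41 to 0.69). The interval leaves out a 2-fold difference in either direction. In retinal progenitor-like cells it was at 8.73 and 8.78 CPM (0.01, interval -0.33 to 0.35), and in mesenchyme or pericyte-like cells at 16.6 and 16.5 CPM (-0.01, interval -0.28 to 0.26). Within the last class, the cluster led by Aldh3a1 and Kera was at 46.6 and 31.1 CPM (-0.57, interval -1.04 to -0.14).

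**Figure D5:**
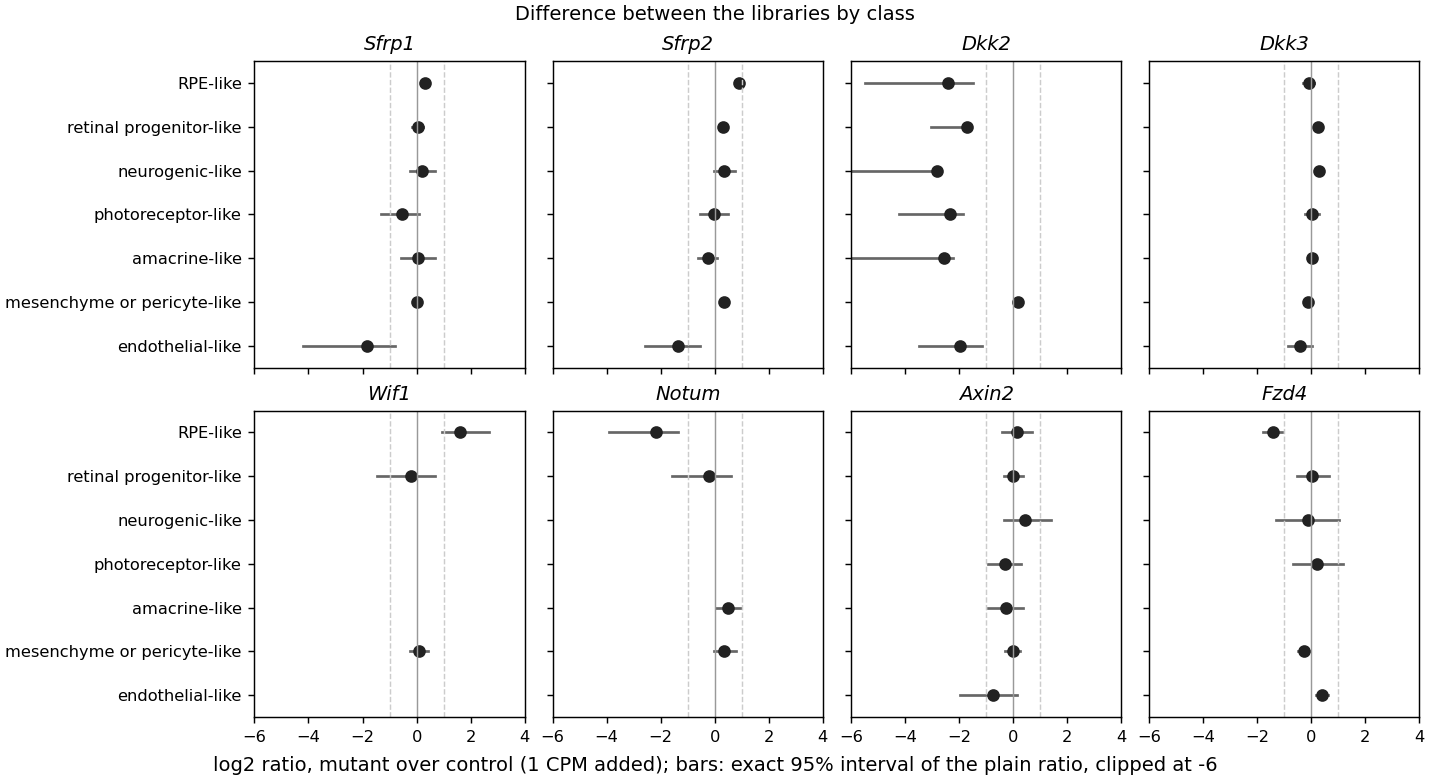
Log2 ratio of mutant over control for 8 genes in the 7 compared classes, with the exact 95% interval of the plain ratio clipped at -6 (dashed lines mark 2-fold, and no point is drawn under 20 UMIs). Dkk2 was lower in every class but mesenchyme or pericyte-like cells, Fzd4 was lower past 2-fold in RPE-like cells alone, and Axin2 intervals all included 0.

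Of the 99 other WNT pathway genes listed, 59 were measured in RPE-like cells, where 2 were lower and 4 higher by at least 2-fold, beside 5.08% and 2.57% of all genes measured there. Their median log2 ratio was -0.04. Higher in the mutant were the ligand gene Wnt4 (4.85 and 20.1 CPM, log2 ratio 1.85), the R-spondin gene Rspo4 (3.64 and 22.9 CPM, 2.37), the Frizzled gene Fzd1 (30 and 76.6 CPM, 1.32) and Tpbg (13.3 and 27.8 CPM, 1.01), whose product inhibits WNT reception at the cell surface. Lower were the co-repressor gene Ctbp2 (77.6 and 36.8 CPM, -1.05) and the feedback gene Nkd2, with 32 and 1 UMIs. Several of these levels are low, and how the UMIs were spread over cells and depths is not given here.

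By role, Fzd1 was the 1 receptor gene of 13 measured that passed 2-fold, beside Fzd4. Those with the highest levels were Lgr4, the R-spondin receptor (169 and 190.4 CPM), Fzd2 (113 and 140 CPM) and Ryk (73.9 and 72 CPM). Wls, whose product carries WNT ligands to the cell surface, was at 303 and 169 CPM (-0.83, interval -1.01 to -0.67), and Porcn, which lipidates them, at 10 and 11.1 CPM. Wnt5a was the ligand gene with the highest level (24.5 and 38.5 CPM, 0.63, interval 0.20 to 1.10). Sostdc1, a secreted inhibitor, was at 683 and 787 CPM. Cthrc1, listed with the extracellular inhibitors although its product is known as a cofactor of WNT reception, was at 241 and 264 CPM.

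Inside the cell, the β-catenin gene Ctnnb1 was at 428 and 379 CPM, Gsk3b at 253 and 319.7 CPM and Csnk1a1 at 223 and 209 CPM, and 24 of the 25 measured relay genes stayed within 2-fold. Of the 8 target genes measured, 7 stayed within 2-fold, among them Id2 (447 and 434 CPM), Jun (444 and 395 CPM) and the cyclin gene Ccnd1 (385 and 262 CPM, -0.56, interval -0.70 to -0.42).

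In the other classes few of the 10 genes passed 2-fold. In retinal progenitor-like cells 1 of 8 measured was lower (Dkk2) and 0 higher, against 0.76% and 0.171% of all measured genes. Among the pathway genes there, Wnt5a was at 12.7 and 5.85 CPM (interval of the log2 ratio -1.47 to -0.78), where mesenchyme markers summed to 1329.8 and 238 CPM. In neurogenic-like cells Dkk2 alone of 6 was lower, against 0.964% of genes lower and 0.347% higher. In photoreceptor-like cells it was again Dkk2 of 6, against 1.36% and 0.45%, and Wnt5a was at 11.6 and 2.61 CPM, where mesenchyme markers summed to 2062 and 309.7 CPM. Their part in the Wnt5a differences was not tested. Amacrine-like cells had Dkk2 of 6 lower, against 1.11% and 0.768%. In mesenchyme or pericyte-like cells 0 of 9 passed in either direction, against 0.305% and 0.181%. In endothelial-like cells Sfrp1, Sfrp2 and Dkk2 of 6 were lower and 0 higher, against 3.21% and 0.568%, and the feedback gene Nkd1 was at 38 and 16.8 CPM (-1.13, interval -1.78 to -0.61). There, 1 control cell held 22 of the 55 Sfrp2 UMIs. The comparisons between classes use cells of the same 2 libraries.

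Over the 28 points of class and library with at least 20 cells, genes were ranked by their Pearson correlation of log2(CPM + 1) with each of the 10 genes. The points share libraries, so this is a description. Among those most like Sfrp1 were Ctnnal1 (r = 0.905) and Ptpn13 (0.819). Most like Sfrp2 were Foxp2 (0.854), Cyp1b1 (0.842) and Bdh2 (0.840). Most like Fzd4 were Pgm5 (0.897), Bmp6 (0.862) and Bcam (0.844). Dkk2 was followed by the mesenchymal genes Twist2 (0.910), Cd248 (0.908) and Kera (0.896), and Dkk3 by Rmst (0.845), Scrn1 (0.842) and H1fx (0.825). Axin2 was followed by C030014I23Rik (0.849), Mical3 (0.841) and Acaca (0.785). Among the sparse genes, Sfrp5 had Col20a1 (0.940) and Gfra3 (0.936) among the genes most like it, Notum was followed by Shank1 (0.775), 6330403K07Rik (0.770) and Car11 (0.766), Wif1 by Thbs3 (0.844), Cldn22 (0.838) and Cldn10 (0.828), and Frzb by D330050G23Rik (0.828), Kctd14 (0.827) and Loxl3 (0.801).

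All 10 genes are protein-coding in GENCODE M21 on GRCm38. Sfrp1 lies at chr8:23411502-23449632, Dkk2 at chr3:132085292-132180304, Dkk3 at chr7:112116017-112159057, Wif1 at chr10:121033960-121100650, Notum at chr11:120653788-120661175 and Axin2 at chr11:108920349-108950783. Sfrp5 lies at chr19:42197971-42202252 and Frzb at chr2:80411970-80447625. None overlaps another gene on its own strand. Sfrp2, Axin2 and Notum overlap genes on the other strand (Gm26771 for Sfrp2, Gm11670 for Axin2, Myadml2os and Notumos for Notum).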

How the data were processed

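The libraries were 10x Genomics 3′ single-cell libraries. The authors made the UMI counts with Cell Ranger (7.1.0 in the submitters' processing notes, 3.1.0 in the matrix header) on mm10. The notes also name Seurat 4.1.1, while the gene annotation behind the counts is not given in the sources used here. The deposited matrices hold raw counts without normalization. Gene positions came from GENCODE M21.

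Barcodes with at least 200 genes and at most 15% mitochondrial UMIs were kept. The study's removal of barcodes over 2000 UMIs as doublets was tried as an alternative, since 80.2% of control and 92.1% of mutant barcodes exceed it. Scrublet (scanpy 1.11.5, Python 3.11.15) marked 0% of control barcodes at its own threshold, so in both libraries the expected share (11.3% and 9.62%) was removed by score, 1597 and 1157 barcodes. Cells were integrated and clustered with Seurat 5.3.0 in R 4.3.3 (2000 variable genes less the listed genes, 30 components, resolution 1; resolution 2 for the RPE-like groups). A marker counted for a cluster if 10% of cells held it at 2 times the level elsewhere. A class needed 3 counted markers, and names are rebuilt, so they may differ from those of the study. These naming limits were chosen after the clusters had been seen.

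Within each class, the UMIs of a library were added up. Classes with at least 100 cells in each library were compared. The 10 genes, the marker lists and the pathway lists were chosen with earlier results of these data known. The named genes were all 10, the pathway genes past 2-fold with at least 50 UMIs or among the 3 with the highest level of their role in RPE-like cells, and the 3 genes most like each of the 10 among genes with at least 100 UMIs, some of which are not reported here. Nkd2, with fewer UMIs, was named after its values were seen. The minimum of 20 cells for a point was set later. The interval code was tested on simulated counts. No test was possible with 1 library per genotype, and intervals are exact Poisson, conditional Poisson or Clopper-Pearson intervals, which cover counting error only.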

Additional observations from a re-analysis of the deposited data

Results flagged for a closer look

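For 5 of the genes the libraries differed in opposite directions in RPE-like cells and in another class, with both counting intervals clear of 0. None of these differences between classes was tested, because each class has 1 library per genotype.

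For Fzd4 the log2 ratio in RPE-like cells minus that in endothelial-like cells was -1.78. For Sfrp1 and Sfrp2 the same differences were 2.16 and 2.24, where endothelial-like levels were low (10.1 and 2.1 CPM of Sfrp1, 16.3 and 5.78 CPM of Sfrp2). Of the control endothelial-like UMIs, 1 cell held 22 of 55 for Sfrp2 and 1 cell held 8 of 34 for Sfrp1. For Notum the log2 ratio in RPE-like minus that in amacrine-like cells was -2.64, with the RPE-like UMIs in 15 control cells and 1 mutant cell, and with amacrine-like clusters in opposite directions (0.88 and -1.94). Without RPE-like cells holding at least 2 of Msx1, Zic1 and Wfdc1, which carried 53 of 54 control and 7 of 7 mutant Notum UMIs, the RPE-like ratio was -0.40, from 1 and 0 UMIs. For Dkk2 the log2 ratio in RPE-like minus that in mesenchyme or pericyte-like cells was -2.61. In RPE-like cells over 8000 UMIs the Dkk2 ratio was -0.95, with an interval that included no difference (-3.90 to 0.62). Col1a1 was at 1294 and 46.3 CPM in RPE-like cells, and the part of mesenchymal RNA was not tested. Clusters of the mesenchyme or pericyte-like class differed in direction, with the log2 ratio of Dkk2 at -0.42 in the cluster led by Col10a1 and -0.14 in that led by Aldh3a1, so the opposite directions do not hold for each cluster.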

How the results depend on the processing

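No paired analysis was possible because each genotype has 1 library. Of 636 recomputed log2 ratios over 49 gene and class pairs, 95 moved beyond the counting interval and 1 called ratio changed sign, that of Sfrp2 in endothelial-like cells (0.36 with at most 2000 UMIs per cell, from 6 and 1 UMIs). The cause of the moved values was not tested.

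In RPE-like cells with at most 2000 UMIs the log2 ratio was 0.67 for Sfrp1, -0.16 for Sfrp2, -6.14 for Dkk2, -0.62 for Dkk3, -4.42 for Axin2 and -6.30 for Fzd4, where the mutant had 0 UMIs of Dkk2, Axin2 and Fzd4. Thinned to 1000 UMIs per cell it was 0.76 for Sfrp2, 0.16 for Wif1, 1.47 for Axin2 (3 and 4 UMIs) and -2.48 for Fzd4. With at most 5% mitochondrial UMIs it was 0.13 for Sfrp1, 0.77 for Sfrp2, 0.00 for Notum and -0.75 for Fzd4. As a mean over cells it was 0.51 for Sfrp1 and -1.10 for Notum. With 5 CPM added it was -1.35 for Dkk2. Without integration it was 0.79 for Wif1 and -4.12 for Notum. Added after seeing the data, only cells over 8000 UMIs gave 0.23 for Sfrp1, -0.95 for Dkk2, 2.92 for Wif1 and -4.30 for Notum, and leaving out cells with ciliary margin markers gave -0.40 for Notum.

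The number of the 10 genes lower past the fold in RPE-like cells was 3 in the main setting, 0 with at most 2000 UMIs per cell, and 1 both after thinning and with at most 5% mitochondrial UMIs. The number higher was 1, and it was 0 under these settings and without integration and 2 at 1.5-fold. With at most 2000 UMIs per cell, Dkk2 and Fzd4 had 17 and 19 UMIs and fell under the minimum of 20. Scaling by the median ratio, resolutions 0.5 and 2 and clustering without pigment markers moved no ratio in RPE-like cells beyond its interval.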
